A study of Mus musculus with 30 samples.

Results

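Cells sense foreign or misplaced nucleic acid with a small set of proteins, and 10 mouse genes of this system were followed here across neuronal progenitor cells (NPCs) of 8 lines. They were chosen by name, as the rows of the count table whose symbol is *Ifih1*, *Dhx58*, *Ddx60*, *Tlr3*, *Eif2ak2*, *Mavs*, *Myd88*, *Tmem173*, *Aim2* or *Trex1*. All 10 of 10 were found among the 25400 genes of the table, 9 by symbol and *Tmem173* by its Ensembl identifier, since the table lists it under the newer symbol *Sting1*. All of them passed the filter on low counts, which kept 16582 genes.

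The cells were mouse embryonic stem cells (ESCs) of a mixed 129 and C57BL/6 background that carry a biotin ligase and a recombination site, differentiated to NPCs and collected at day 8 for poly(A) RNA-seq. The 8 lines, with 3 libraries each, were the wild type (WT), *Mbd3* KO made with CRISPR-Cas9, and 6 lines of *Mbd3* KO cells with a biotin-tagged construct driven by the CAG promoter from the recombination site. The constructs were MBD3a (the long MBD3 isoform), MBD3ΔMBD (without the methyl-CpG binding domain), MBD2a, MBD2aΔGR (without the glycine-arginine stretch), MBD2aR181C (with a point mutation in the methyl-CpG binding domain) and MBD2t (a truncated isoform that lacks the coiled coil). Libraries of a line came from separately derived clones. MBD2t is the exception, as its 3 libraries repeat 1 clone and their spread holds no difference between clones. MBD2 and MBD3 are alternative subunits of NuRD, a chromatin complex that joins nucleosome remodelling with histone deacetylation.

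In the cytosol, the RIG-I-like receptors bind viral RNA and signal through the mitochondrial adaptor MAVS, while cGAS binds DNA and signals through STING. Some Toll-like receptors survey endosomes, and most of the family, though not all, use the adaptor MYD88. Most of these routes end in kinases and transcription factors that switch on interferon genes, and secreted interferon in turn raises the expression of many of the sensors themselves through the interferon-stimulated response element (ISRE). Embryonic stem cells are known for a weak interferon response that matures with differentiation.

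The promoters of the members were read first, because several of these genes are textbook interferon-stimulated genes. Windows of 300 bases, from 250 before to 50 after the start (RefSeq, GRCm38.p6), were used for 8 of the 10 members, with 2 windows for *Trex1*, and *Dhx58* and *Tmem173* were not searched. They were searched on both strands for the core of the ISRE, which is GAAA, 2 free bases and GAAA again, and for the STAT-like letters TTCNNNGAA and the NF-kB-like letters GGAANTTCC. Of 32851 windows of all genes, 3.44% hold the ISRE letters, 8.3% the STAT-like and 0.928% the NF-kB-like letters. Among the 8 members, 4 hold the ISRE letters, 2 the STAT-like and 0 the NF-kB-like letters.

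Printed are the windows of the 4 members with the ISRE letters, and of *Tlr3* as a member that rose in *Mbd3* KO and has none. Capitals mark the ISRE letters, and each window is written 5′ to 3′ on the strand of its gene. The *Ifih1* window is chr2:62646206-62646505 (minus strand), that of *Ddx60* chr8:61927837-61928136 (plus), that of *Eif2ak2* chr17:78882523-78882822 (minus), that of *Myd88* chr9:119339969-119340268 (minus) and that of *Tlr3* chr8:45410331-45410630 (minus).
Ifih1: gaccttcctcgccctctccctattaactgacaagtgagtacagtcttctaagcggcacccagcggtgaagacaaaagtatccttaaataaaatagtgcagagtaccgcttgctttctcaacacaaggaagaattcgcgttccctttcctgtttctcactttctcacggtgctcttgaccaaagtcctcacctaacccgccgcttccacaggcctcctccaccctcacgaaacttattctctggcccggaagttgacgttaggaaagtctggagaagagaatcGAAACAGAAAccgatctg
Ddx60: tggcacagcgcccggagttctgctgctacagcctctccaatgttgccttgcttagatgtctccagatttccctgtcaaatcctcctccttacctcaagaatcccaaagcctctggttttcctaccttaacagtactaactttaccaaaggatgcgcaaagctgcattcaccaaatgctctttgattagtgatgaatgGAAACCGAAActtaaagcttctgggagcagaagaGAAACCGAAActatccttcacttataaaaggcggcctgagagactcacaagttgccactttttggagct
Eif2ak2: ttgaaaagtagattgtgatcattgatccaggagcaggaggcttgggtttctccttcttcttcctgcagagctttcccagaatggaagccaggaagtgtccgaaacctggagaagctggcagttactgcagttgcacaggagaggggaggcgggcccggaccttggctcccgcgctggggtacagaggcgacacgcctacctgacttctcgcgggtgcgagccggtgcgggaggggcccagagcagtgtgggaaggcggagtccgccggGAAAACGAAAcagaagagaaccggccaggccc
Myd88: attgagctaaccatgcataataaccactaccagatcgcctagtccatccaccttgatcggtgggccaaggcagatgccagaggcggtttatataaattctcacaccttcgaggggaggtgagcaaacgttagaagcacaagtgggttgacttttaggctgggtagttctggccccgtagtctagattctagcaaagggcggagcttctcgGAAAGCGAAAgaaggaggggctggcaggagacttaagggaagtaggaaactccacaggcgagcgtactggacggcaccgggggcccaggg
Tlr3: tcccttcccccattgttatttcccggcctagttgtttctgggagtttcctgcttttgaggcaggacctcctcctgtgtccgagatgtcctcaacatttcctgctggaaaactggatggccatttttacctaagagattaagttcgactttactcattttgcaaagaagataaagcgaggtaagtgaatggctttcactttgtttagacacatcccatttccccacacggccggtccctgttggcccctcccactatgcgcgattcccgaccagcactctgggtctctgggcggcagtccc

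In *Ifih1* and *Eif2ak2* the ISRE letters lie after the start site, from base 33 to 42 and from base 19 to 28. *Ddx60* holds them at 2 places before the start, from base -53 to -44 and from base -19 to -10, and both copies read GAAACCGAAA. In *Myd88* they run from base -40 to -31 and share bases with a STAT-like match from -46 to -38, while the other STAT-like match lies in *Eif2ak2* from -178 to -170. The windows of *Tlr3*, *Mavs*, *Trex1* and *Aim2* hold none of the letters searched. A stretch just after the start was found in a GENCODE transcript of the same gene for each window of the members except that of *Tlr3*, whose start could thus not be checked. A match of letters describes the sequence and does not show that a factor binds there.

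**Figure D1:**
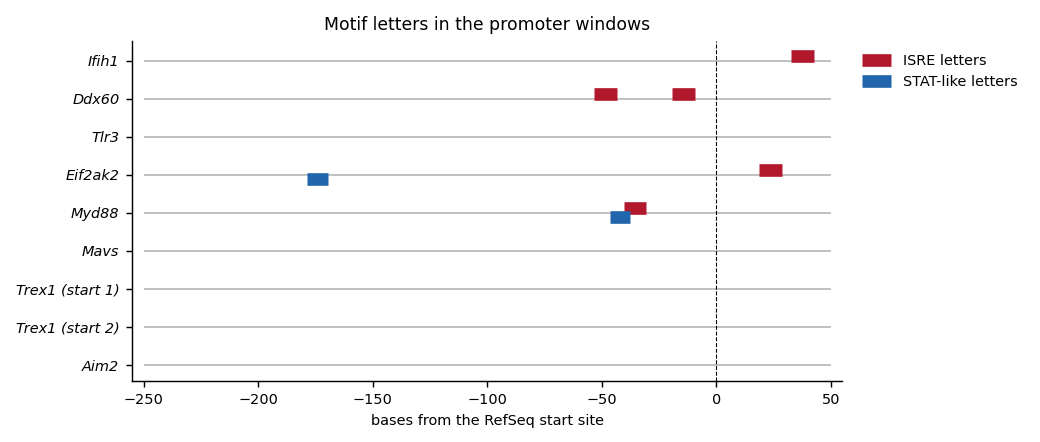
Position of the motif letters in the promoter windows of the members, in bases from the RefSeq start site (dashed line), with the members in rows. Red blocks are the ISRE letters, found in 4 members (*Ifih1*, *Ddx60*, *Eif2ak2* and *Myd88*), and blue blocks the STAT-like letters, found in *Eif2ak2* and *Myd88*.

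Before the members, the libraries were checked. Totals lay between 27993858 and 49392806 counted reads, and 3 reads correspond to 0.0607 to 0.107 CPM (reads scaled to library size), counting error only. *Mbd3* had 149 to 156.9 CPM in the WT libraries and 34.3 to 73.8 CPM in *Mbd3* KO, so reads on the targeted gene remained. Markers of NPCs and neurons stood at a summed 1546 to 3096 CPM in WT and at 158.5 to 276.7 CPM in *Mbd3* KO. Of these markers, 9 of 9 tested were called lower (thresholds below), beside 14.2% of all genes. In *Mbd3* KO, 10 of 10 markers of pluripotent cells and 8 of 8 trophoblast markers had a higher level, as had 8061 of all 16582 genes. In bulk RNA, a change in the share of a cell type cannot be told apart from a change of RNA per cell. The part of these marker differences in the results below was not tested.

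Of the 10 members, 7 rose in *Mbd3* KO NPCs. These were the RNA helicases *Ifih1*, *Dhx58* and *Ddx60*, the receptor *Tlr3*, the kinase *Eif2ak2*, and the adaptors *Tmem173* and *Myd88*, with rises of 3.15-fold to 11.4-fold, and in each the 3 KO libraries lay above the 3 WT libraries. *Mavs*, *Trex1* and *Aim2* did not pass. Calls needed an adjusted p under 0.05 and a change of more than 1 on the log2 scale, by edgeR's quasi-likelihood test with Benjamini-Hochberg adjustment over all 16582 genes, and 19.6% of them were called higher in *Mbd3* KO. Libraries lay above WT without overlap in 31.1% of all genes. The median log2 fold change of the 10 members was 1.85, beside -0.03 for all genes tested.

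*Ifih1* encodes MDA5, the receptor for long double-stranded RNA (chromosome 2, 62433850 to 62484312, NCBIM37). It had 2.15, 2.09 and 3.17 CPM in WT and 15.98, 19.1 and 18.4 CPM in *Mbd3* KO. Every KO library was thus far above every WT library, and the log2 fold change was 2.85 (standard error, SE, 0.35, edgeR adjusted p = 2.65e-06). *Ddx60* (chromosome 8, 64406884 to 64516498), an interferon-induced helicase linked to RIG-I-like receptor signalling, had 0.644, 1.49 and 1.58 CPM in WT and 13.8, 14.7 and 14.1 CPM in *Mbd3* KO. Its WT libraries rest on 24 to 65 reads each, the KO libraries on 483 to 665, and its log2 fold change of 3.51 (SE 0.48, edgeR adjusted p = 7.45e-06) was the largest of the 10 members.

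*Dhx58* encodes LGP2, a relative of MDA5 without the signalling domains (chromosome 11, 100556018 to 100565585). WT libraries had 1.13, 1.24 and 1.66 CPM and *Mbd3* KO libraries 5.95, 3.45 and 3.44 CPM, with a log2 fold change of 1.66 (SE 0.39, edgeR adjusted p = 0.00121). The groups did not overlap, but library s04 of *Mbd3* KO (libraries are called by the code in their column name) was well above the other 2. *Dhx58* shares exon sequence with the antisense transcript *Gm11547*, and whether the counting used the strand is not given in the sources used here.

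*Tlr3*, the endosomal receptor for double-stranded RNA (chromosome 8, 46481019 to 46495962), had 2.04, 2.42 and 1.41 CPM in WT and 8.09, 8.54 and 9.52 CPM in *Mbd3* KO. The log2 fold change was 2.16 (SE 0.33, edgeR adjusted p = 2.14e-05). *Eif2ak2* encodes PKR, the kinase that halts translation when it binds double-stranded RNA (chromosome 17, 79251904 to 79281913). It had 19.1, 21.7 and 28.3 CPM in WT and 87.9, 80.2 and 79.5 CPM in *Mbd3* KO (log2 fold change 1.84, SE 0.23, edgeR adjusted p = 2.53e-06). Both genes were clearly split between the lines, without overlap of libraries. *Eif2ak2* overlaps 2 annotated transcripts on the opposite strand.

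Among the adaptors, *Tmem173* encodes STING, which relays the signal of cytosolic DNA (chromosome 18, 35893332 to 35900208). It had 1.40, 1.29 and 1.39 CPM in WT and 14.04, 11.2 and 11.3 CPM in *Mbd3* KO, with a log2 fold change of 3.16 (SE 0.28, edgeR adjusted p = 8.00e-08). *Myd88*, the adaptor of most Toll-like receptors and of the interleukin-1 receptor (chromosome 9, 119245052 to 119250529), had 5.66, 7.46 and 9.40 CPM in WT and 27.8, 23.8 and 29.9 CPM in *Mbd3* KO. Here the log2 fold change was 1.85 (SE 0.29, edgeR adjusted p = 2.81e-05). The lines did not overlap in either gene. *Myd88* shares exon sequence with *Acaa1a* on the opposite strand.

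*Mavs*, the adaptor of the RIG-I-like receptors on mitochondria (chromosome 2, 131059799 to 131073761), was not called. It had 17.5, 22.8 and 18.1 CPM in WT and 21.7, 21.95 and 22.4 CPM in *Mbd3* KO, so that the lines overlapped, and its log2 fold change was 0.18 (SE 0.12, edgeR adjusted p = 0.221). *Trex1*, the exonuclease that clears cytosolic DNA (chromosome 9, 108960447 to 108962852), had 8.19, 7.65 and 6.14 CPM in WT and 8.55, 7.02 and 9.15 CPM in *Mbd3* KO (0.17, SE 0.16, edgeR adjusted p = 0.371). Its exons overlap those of *Atrip* on the same strand, so reads of the 2 genes cannot be kept apart with certainty. Between all neighbouring lines in the order of mean levels, the libraries of *Mavs* and of *Trex1* overlapped. Lines further apart in that order need not. The *Mavs* libraries of MBD3ΔMBD lay below those of *Mbd3* KO, as in 33.7% of all genes.

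*Aim2* was the member with the lower level in *Mbd3* KO. It encodes the DNA sensor of an inflammasome (chromosome 1, 175281010 to 175396171) and had 8.99, 8.005 and 11.2 CPM in WT and 6.40, 5.93 and 4.79 CPM in *Mbd3* KO. All 3 KO libraries lay below all 3 WT libraries, as they did in 31.1% of all genes. The log2 fold change of -0.72 (SE 0.29, edgeR adjusted p = 0.0381) did not reach the fold threshold. Genes of chromosome 1 had a median log2 fold change of -0.23 in *Mbd3* KO, beside -0.03 for all genes. Their median deviation from the other KO libraries was -0.375 in s04, 0.095 in s05 and 0.288 in s06, and *Aim2* was highest in s04 and lowest in s06. The part of chromosome 1 in the value of *Aim2* was not tested.

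**Figure D2:**
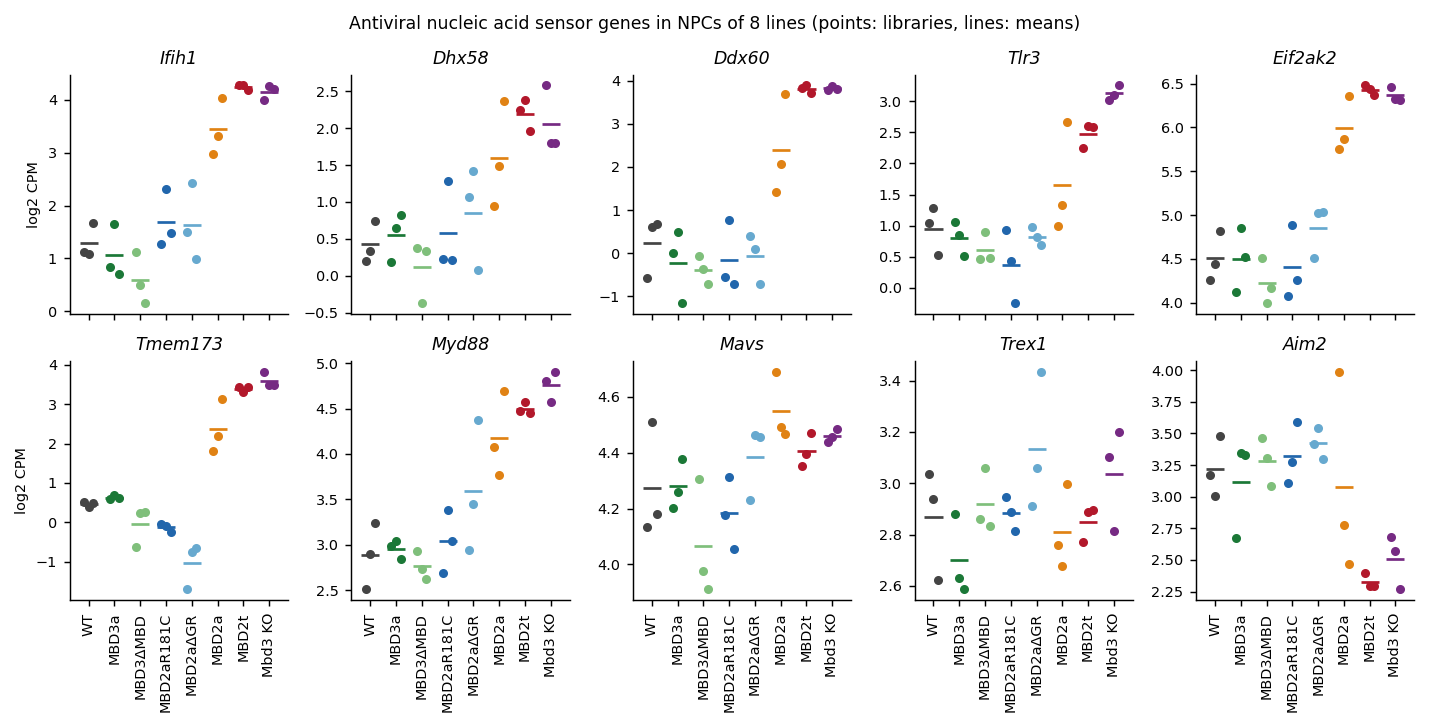
Level of each member in every library, as log2 CPM with a prior count of 1, for the 8 lines, with points for libraries and horizontal lines for means. In 7 genes (*Ifih1* to *Myd88*) MBD2t and *Mbd3* KO stand apart from WT without overlap, while *Mavs* and *Trex1* overlap with WT in each other line, and *Aim2* lies below WT in MBD2t and *Mbd3* KO.

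Scaled to exon length, the order of the members changed with the line. In WT, the highest levels per exon length and library size (RPKM) were those of *Mavs* (5.82 ± 0.857, SD, n = 3 here and below), *Trex1* (5.57 ± 0.809) and *Eif2ak2* (4.51 ± 0.922), which lay within each other's spread. *Myd88* (2.91 ± 0.725) and *Aim2* (2.68 ± 0.459) came next, and the receptors and STING were lowest, from *Tmem173* at 0.590 RPKM through *Ifih1* (0.447 ± 0.110), *Tlr3* (0.445 ± 0.116) and *Dhx58* (0.388 ± 0.0807) to *Ddx60* (0.1785 ± 0.0745). In *Mbd3* KO, *Eif2ak2* (16.1 ± 0.917 RPKM) and *Myd88* (10.55 ± 1.19) stood above *Mavs* (6.57 ± 0.102), and *Tmem173* (5.29 ± 0.703) came close to *Trex1* (6.27 ± 0.838). The helicase *Ifih1* reached 3.23 ± 0.298 RPKM and *Ddx60* 2.05 ± 0.0675, both above *Aim2* at 1.63 ± 0.237. Lengths are those of all annotated exons together, which for *Dhx58* (3452 bases) are longer than its longest transcript (2518 bases).

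**Figure D3:**
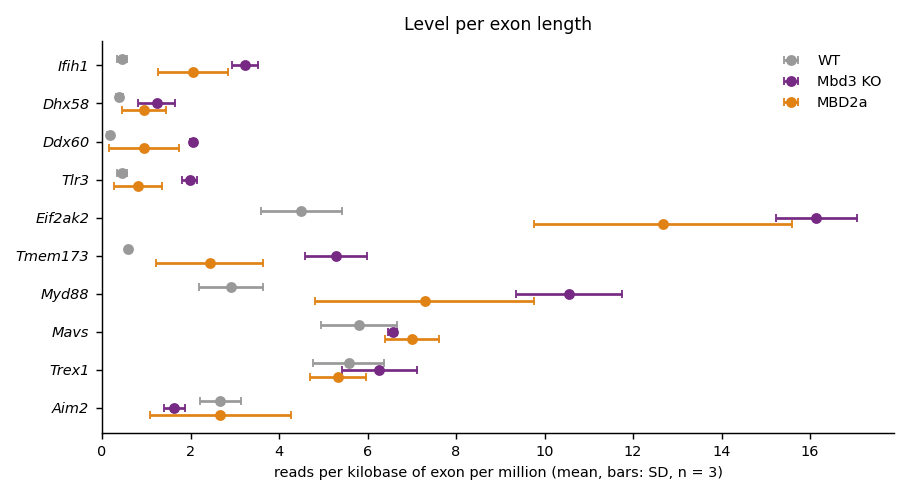
Mean level of each member in WT, *Mbd3* KO and MBD2a, in RPKM (reads scaled to exon length and library size), with bars for the SD of 3 libraries. *Mavs* and *Trex1* lead in WT, whereas *Eif2ak2* at 16.1 and *Myd88* at 10.55 lead in *Mbd3* KO.

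With MBD3a in the *Mbd3* KO cells, all 7 members were lower than in *Mbd3* KO, with log2 fold changes between -1.54 (*Dhx58*, SE 0.40) and -3.94 (*Ddx60*, SE 0.52), where 18.9% of all genes were called lower. The 7 were picked as high in these same *Mbd3* KO libraries, so a fall against them was partly built in. This holds for every construct set against *Mbd3* KO here, and the share of all genes is not a like base for it. *Ifih1* had 1.76, 3.11 and 1.597 CPM with MBD3a, and *Tmem173* had 1.47, 1.57 and 1.49 CPM. For *Ifih1* this overlapped the WT libraries, while the 3 libraries of *Tmem173* lay slightly above those of WT, as in 2.8% of all genes. Against WT, 0 of 10 members were called by edgeR's quasi-likelihood test and 0 by DESeq2, 0 had an unadjusted p under 0.05, beside 1.77% of all genes, and 0% of all genes were called. The largest differences from WT were -0.43 (SE 0.63) for *Ddx60* and -0.20 (SE 0.40) for *Ifih1*.

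MBD3ΔMBD gave the same count. Against *Mbd3* KO, the 7 members were lower by log2 fold changes of -1.98 (*Dhx58*, SE 0.41) to -4.27 (*Ddx60*, SE 0.53), with 20.9% of all genes called lower. Levels of *Ifih1* ran from 1.10 to 2.14 CPM and those of *Tmem173* were 0.612, 1.15 and 1.17 CPM. *Ifih1* overlapped WT, and the 3 libraries of *Tmem173* lay below those of WT, as in 6.16% of all genes. Of the 10 members, 0 were called against WT by edgeR and by DESeq2, with 0.0181% of all genes called, and 0 had an unadjusted p under 0.05, beside 7.16% of all genes. Likewise, 0 were called against MBD3a by either tool, with 0% of all genes called and 0 at an unadjusted p under 0.05 (3.92% of all genes), and the largest difference between the 2 constructs was -0.58 (SE 0.35) for *Tmem173*. *Mbd3* RNA was at 448.1 ± 41.5 CPM with MBD3ΔMBD and 186.3 ± 16.2 CPM with MBD3a, and its part in the members' values was not tested.

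The MBD2a constructs split the members in a different way. With full-length MBD2a, 6 members were called higher than in WT, beside 16.9% of all genes, and *Tlr3* (0.89, SE 0.35, edgeR adjusted p = 0.0354) fell short of the fold threshold. The median log2 fold change of the 10 members was 1.31, beside -0.01 for all genes. *Ifih1* had 7.86, 9.90 and 16.3 CPM, *Tmem173* had 3.45, 4.57 and 8.77 CPM and *Ddx60* had 2.65, 4.18 and 12.9 CPM. All of these lay above the WT libraries, and in each gene the highest value came from library s15. The log2 fold changes against WT were 2.20 (SE 0.35), 2.05 (SE 0.28) and 2.41 (SE 0.49).

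For the other called members, *Eif2ak2* had 54.0, 58.6 and 81.9 CPM (log2 fold change 1.49, SE 0.23), *Myd88* 16.8, 13.6 and 25.9 CPM (1.32, SE 0.29) and *Dhx58* 1.90, 2.77 and 5.15 CPM (1.29, SE 0.40, edgeR adjusted p = 0.00986). These too were above WT without overlap, as were 27.8% of all genes. *Tlr3* had 1.96, 2.48 and 6.30 CPM, within the WT range in s13, just above it in s14 and far above it in s15. *Mavs* (25.8, 22.5 and 22.1 CPM) and *Trex1* (6.74, 6.36 and 7.95 CPM) were not called. *Aim2* had 15.8, 6.81 and 5.51 CPM, with library s13 above every other library of the study and the other 2 MBD2a libraries below the WT range. For genes of chromosome 1, where *Aim2* lies, the median deviation of each library from the other 2 MBD2a libraries was taken on the log2 scale. It was 0.198 in s13, 0.169 in s14 and -0.388 in s15, while *Aim2* was low in both s14 and s15. The part of chromosome 1 in these values was not tested.

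Library s15 of MBD2a thus stood nearer to *Mbd3* KO than the other 2. The median difference of the 7 members from the WT mean was 1.94 on the log2 scale in s15, beside 1.19 in s13 and 1.36 in s14, and 2.15 to 2.30 in the *Mbd3* KO libraries. In s15, *Mbd3* was at 36.4 CPM, beside 71.0 and 70.8 CPM in the other MBD2a libraries, and trophoblast markers summed to 1130 CPM, beside 291.8 and 307.3 CPM. *Mbd2*, to which an MBD2 construct can add reads, was at 67.02 CPM in s15, within the 64.3 to 70.9 CPM of *Mbd3* KO, and at 87.2 and 86.3 CPM in the other 2, whereas the other MBD2 constructs gave 252.9 to 700.2 CPM. The part of these differences in the members' values was not tested. Without s15, *Dhx58* was no longer called in MBD2a against WT (0.80, edgeR adjusted p = 0.113) and the change of *Ddx60* was 1.47 instead of 2.41, while without s13, s14 or the WT library s02 *Tlr3* was called as well.

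**Figure D4:**
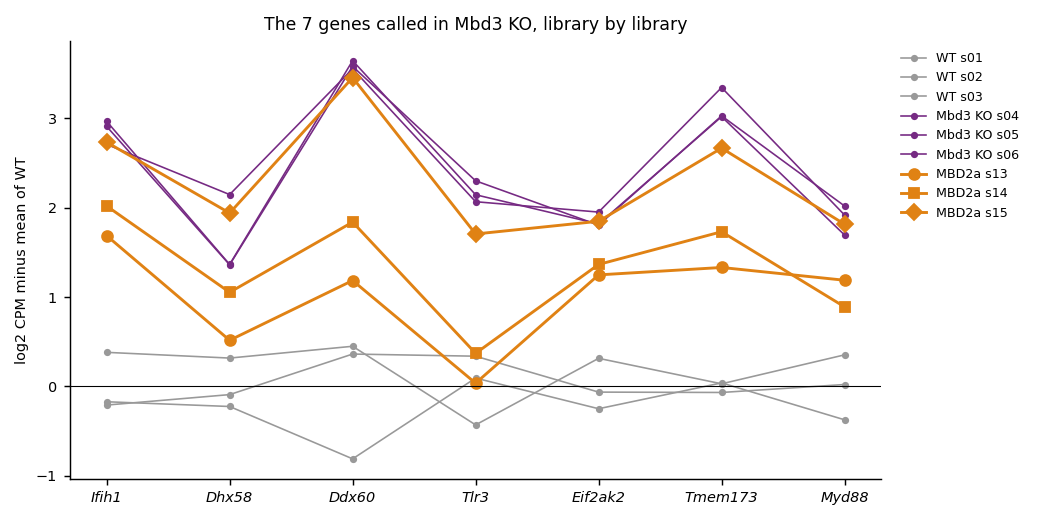
Difference of each library from the WT mean, as log2 CPM with a prior count of 1, for the 7 members called in *Mbd3* KO, with a line for each library of WT (grey), *Mbd3* KO (purple) and MBD2a (orange). Library s15 of MBD2a (diamonds, median 1.94) follows the *Mbd3* KO libraries, and s13 and s14 (medians 1.19 and 1.36) lie between them and WT.

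Set against *Mbd3* KO, MBD2a was lower in 2 members, *Tlr3* (-1.27, SE 0.31, edgeR adjusted p = 0.0133) and *Tmem173* (-1.11, SE 0.24, edgeR adjusted p = 0.00569), beside 4.4% of all genes called lower. Neither call held in every setting. *Tmem173* was not called without the KO library s04, *Tlr3* not without s06, and 0 members were called without MBD2a library s13 or s14, while without s15 *Ddx60* was called as well. The changes of the other called members against *Mbd3* KO ran from -1.10 (*Ddx60*, SE 0.40) to -0.35 (*Eif2ak2*, SE 0.22).

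With MBD2aΔGR, the mean levels of the members stood near WT except for *Tmem173* and *Myd88*. Some libraries left the WT range in other members too. Among them, *Ifih1* in s17 (5.36 CPM), *Dhx58* in s16 and s17 (2.06 and 2.65 CPM) and *Eif2ak2* in s17 and s18 (32.5 and 32.7 CPM) lay above it. In s18, *Ifih1* (1.97 CPM) and *Dhx58* (1.025 CPM) lay below it. All 7 members were lower than in *Mbd3* KO, beside 15.3% of all genes, from -1.05 (*Myd88*, SE 0.28) to -4.63 (*Tmem173*, SE 0.33). *Dhx58* lost this call without library s04 or s18, and *Myd88* without s16 or s17. *Tmem173* had 0.276, 0.566 and 0.609 CPM, resting on 9, 19 and 22 reads, and lay below all WT libraries, as in 9.46% of all genes. It was called lower than WT (-1.47, SE 0.40, edgeR adjusted p = 0.0304), the 1 member of 10 called in this comparison, where 2.47% of all genes were called lower. The call was lost without the WT library s01 or s02 or without s18.

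*Myd88* had 7.68, 10.9 and 20.8 CPM with MBD2aΔGR, and the high value was that of library s18. The log2 fold change against WT was 0.81 (SE 0.29, edgeR adjusted p = 0.0860), and without library s16 *Myd88* was called higher. In s18, primitive endoderm markers summed to 1278 CPM, beside 136.8 and 110.9 CPM in the other 2 libraries, and macrophage and leukocyte markers to 30.6 CPM, beside 10.3 and 12.3 CPM. Trophoblast markers (406.9 CPM, beside 75.8 and 84.3), endothelial markers (143.2 CPM, beside 29.8 and 24.3) and pluripotent markers (449.9 CPM, beside 81.8 and 233.7) were also highest in s18, and those of NPCs and neurons lowest (919.3 CPM, beside 2235 and 1407). Their part in the value of *Myd88* was not tested.

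MBD2a was higher than MBD2aΔGR in 5 members, *Tmem173* (3.52, SE 0.34), *Ddx60* (2.78, SE 0.52), *Ifih1* (1.76, SE 0.35), *Eif2ak2* (1.14, SE 0.22) and *Tlr3* (1.05, SE 0.36), beside 10.6% of all genes. Without s15 the count was 3, with *Tlr3* and *Eif2ak2* lost, and the share of all genes called in that fit is not given. *Dhx58* (0.80, SE 0.39) and *Myd88* (0.52, SE 0.28) were not called. The other 3 members did not differ past the threshold either. *Mbd2* RNA also differed between these lines, at 80.2 ± 11.4 CPM with MBD2a and 477.3 ± 211 CPM with MBD2aΔGR. The study reported equal protein levels of these constructs in ESCs by Western blot. The part of the *Mbd2* level in the members' values was not tested.

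With MBD2aR181C, the members stood near WT. Against *Mbd3* KO the 7 members were lower, with log2 fold changes from -1.46 (*Dhx58*, SE 0.38) to -3.88 (*Ddx60*, SE 0.50), beside 18.1% of all genes. Against WT, 0 of 10 were called by edgeR and by DESeq2, with 0.0181% of all genes called, and 0 had an unadjusted p under 0.05 (3.95% of all genes). *Ifih1* had 2.40, 4.96 and 2.75 CPM and *Tmem173* 0.956, 0.912 and 0.820 CPM. The second *Ifih1* value, that of library s20, was above the WT range. In s20, *Dhx58* (2.415 CPM), *Eif2ak2* (29.6 CPM), *Ddx60* (1.69 CPM) and *Myd88* (10.4 CPM) were above their WT ranges too, while *Tlr3* (1.315 CPM) was below. Pluripotent markers summed to 415.7 CPM in s20, beside 45.1 CPM in s19 and 159.9 CPM in s21, and their part was not tested. All 3 *Tmem173* values were below the WT range, as in 3.71% of all genes. MBD2a was higher than MBD2aR181C in 7 members, beside 15.1% of all genes, from 1.09 (*Dhx58*, SE 0.39) to 2.79 (*Ddx60*, SE 0.51). Without s15 it was higher in 4 (*Ifih1*, *Eif2ak2*, *Tmem173* and *Ddx60*), with the share of all genes in that fit not given. *Dhx58* also lost this call without library s19 or s21 of MBD2aR181C. *Mbd2* RNA was at 278 ± 41.1 CPM with MBD2aR181C, beside 80.2 ± 11.4 CPM with MBD2a, and its part in these differences was not tested.

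With MBD2t the same 7 members as in *Mbd3* KO were called higher than in WT, beside 18.2% of all genes, and these comparisons share the WT libraries. *Ifih1* had 19.3, 19.3 and 18.2 CPM, *Ddx60* 14.3, 14.8 and 13.2 CPM and *Tmem173* 10.7, 9.94 and 10.8 CPM. These libraries lay close together and above WT throughout, as in 34.6% of all genes. The log2 fold changes against WT were 2.93 (SE 0.35), 3.50 (SE 0.48) and 2.94 (SE 0.28), and that of *Tlr3*, at 4.72, 6.02 and 5.96 CPM, was 1.51 (SE 0.33). *Aim2*, at 5.24, 4.88 and 4.89 CPM, lay below WT without overlap, also as in 34.6% of all genes (-0.91, SE 0.29, edgeR adjusted p = 0.0111) and was not called. It passed when the WT library s02 was left out or the fold change threshold was dropped.

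Against *Mbd3* KO, MBD2t differed in 0 of 10 members by edgeR and by DESeq2, with 1 at an unadjusted p under 0.05 (3.44% of all genes) and 0.0241% of all genes called. The largest difference was that of *Tlr3* (-0.65, SE 0.30), whose MBD2t libraries lay below all *Mbd3* KO libraries, as in 10.3% of all genes. Between MBD2a and MBD2t, 0 of 10 members were called by either tool, with 4 at an unadjusted p under 0.05 (20.1% of all genes) and 4% of all genes called. Without library s15 of MBD2a this became 5 members (*Ifih1*, *Tlr3*, *Tmem173*, *Ddx60* and *Aim2*). The share of all genes called in that fit is not given, so a general gain in calls cannot be told apart.

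**Figure D5:**
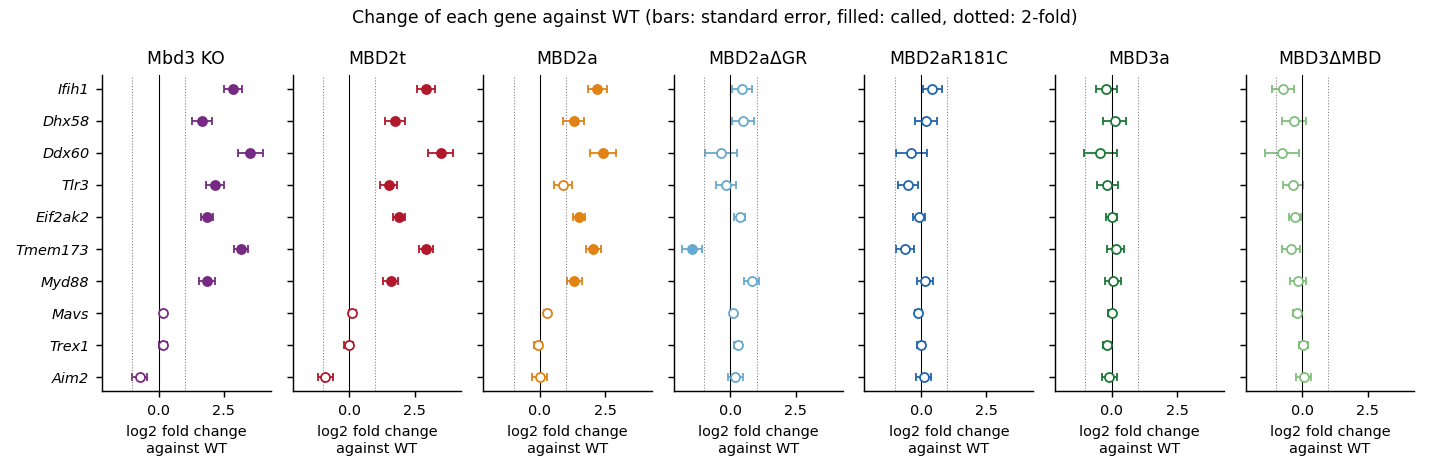
Log2 fold change of each member against WT in the 7 other lines, with bars for the standard error, filled points for genes called and dotted lines at a 2-fold change. Filled points above 1 appear for 7 members in *Mbd3* KO and MBD2t and 6 in MBD2a, and the filled point below -1 is *Tmem173* in MBD2aΔGR (-1.47).

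Ordered by mean level over the 8 lines, *Tmem173* had the most gaps between the libraries of neighbouring lines among the members. From MBD2aΔGR (0.484 CPM) the order ran through MBD2aR181C (0.896), MBD3ΔMBD (0.977), WT (1.36), MBD3a (1.51), MBD2a (5.595) and MBD2t (10.5) to *Mbd3* KO (12.2), and of these neighbours only MBD2aR181C and MBD3ΔMBD overlapped. A gap is not a call. *Tmem173* was not called in MBD3a against WT (0.15, SE 0.33) or MBD3ΔMBD against WT (-0.43, SE 0.35). Nor was it called in MBD2t against *Mbd3* KO (-0.21, SE 0.23) or MBD2a against MBD2t (-0.90, SE 0.24). Gaps in the same direction were found in 2.8%, 6.16%, 10.3% and 17.9% of all genes. For the gaps from MBD2aΔGR to MBD2aR181C and from MBD3a to MBD2a the share of all genes was not taken. In *Ifih1* and *Eif2ak2* the only gap between neighbours was that between MBD2aΔGR and MBD2a, a gap found in the same direction in 19% of all genes. The neighbouring lines of *Dhx58* and of *Aim2* overlapped throughout.

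Other genes of the sensing system were read in the same comparison of *Mbd3* KO with WT, where 19.6% of all genes were called higher and 14.2% lower. Of 24 further RNA sensors tested, 12 were called higher and 2 lower, with a median log2 fold change of 1.74. *Oas1a* (4.81, SE 0.59) and *Oasl2* (3.33, SE 0.60), of the 2-5A synthetase family, and *Ifit1* (4.24, SE 0.71), which binds foreign RNA ends, rose. *Prkra*, an activator of PKR, fell from 46.3 ± 5.78 to 21.5 ± 2.67 CPM (-1.10, SE 0.16). *Oas1a* and *Ifit1* belong to families of similar genes, whose reads the counting could split. RIG-I itself (*Ddx58*, named after its values were seen) rose from 9.82 ± 3.16 to 55.8 ± 7.91 CPM (2.51, SE 0.30).

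On the DNA side, 18 further sensors and nucleases were tested and 4 were called higher and 0 lower, with 11 at an unadjusted p under 0.05 (64.1% of all genes) and a median of 0.15. The 4 higher are a share near the 19.6% of all genes. These 4, named after their values were seen, were *Ifi203*, *Mndal* and *Ifi204* of the cluster to which *Aim2* also belongs, and *Dnase1l3*, a secreted nuclease. All 4 were near 0 in WT and so passed the filter on low counts only through lines where they are higher. *Dnase1l3* rested on 1 to 8 reads in each WT library and on 61 to 88 in *Mbd3* KO, and *Ifi204* on 0 to 3 and 17 to 44. The KO libraries differed widely in *Ifi203*, with 17 to 407 reads beside 2 to 4 in WT, and in *Mndal*, with 6 to 118 beside 0 to 3. *Ifi203* and *Mndal* share exon sequence on the same strand and cannot be told apart with certainty. The DNA sensor cGAS, which acts upstream of STING, was at 3.14 ± 0.396 CPM in WT and 2.50 ± 0.690 CPM in *Mbd3* KO and was not called (-0.31, SE 0.28, edgeR adjusted p = 0.345, named after its values were seen).

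Of 27 further adaptors and kinases, 6 were called higher and 0 lower (median 0.23), a share of rises near the 19.6% of all genes, among them *Ikbke* (4.01, SE 0.51), a kinase that activates interferon regulatory factors, the inflammasome adaptor *Pycard* (2.74, SE 0.54) and *Unc93b1* (2.54, SE 0.31), which escorts Toll-like receptors to endosomes. Of 23 ubiquitin ligases and negative regulators, 8 were called higher and 3 lower (median 0.16), where the 3 lower are a share near the 14.2% of all genes. *Usp18* (3.96, SE 0.49), which dampens interferon signalling, and the RIG-I ligases *Rnf135* (2.84, SE 0.52) and *Trim25* (2.56, SE 0.37) rose. *Sarm1* (-2.59, SE 0.38), *Tnfaip3* (-1.82, SE 0.27) and *Trim32* (-1.29, SE 0.18) fell.

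The interferon list held few expressed ligands. Of its 19 genes 12 were tested, and 6 were called higher and 0 lower (median 1.10), beside 19.6% and 14.2% of all genes, among them *Irf1* (2.44, SE 0.48), *Il10rb* (2.40, SE 0.36) and *Irf9* (1.57, SE 0.14). *Il10rb* and *Irf9* share exon sequence with a neighbour on the same strand. The 6 interferon ligand genes of the list that were matched were below the filter, with 14 reads in all over the 24 libraries, 9 of them on *Ifnk* and 1 on *Ifnb1*. At this depth, expression of these interferon genes was not detectable beyond a few reads in the NPCs of these lines.

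Several members are highly expressed in macrophages, so leukocyte markers were read beside them. The 12 markers summed to 8.62 to 12.9 CPM in WT libraries and to 60.0 to 78.8 CPM in *Mbd3* KO, 54.2 to 61.0 CPM in MBD2t and 27.7 to 50.7 CPM in MBD2a. Of the 6 that passed the filter, 5 were called higher in *Mbd3* KO (*Csf1r*, *Cd68*, *Laptm5*, *Itgam* and *Spi1*), beside 19.6% of all genes, while *Cd14* was not called. The median of the 6 was 2.37 on the log2 scale. Markers with few reads in WT could pass the filter only through lines where they are higher, which tilts this count and median upward. *Csf1r*, *Cd68* and *Laptm5* made up most of the sum, *Itgam* had 16 to 61 reads and *Spi1* 10 to 20 in each *Mbd3* KO library, and *Aif1*, below the filter, had 6 to 9. The leukocyte genes *Ptprc*, *Adgre1* and *Fcgr1* were at 0 reads in all WT libraries and had at most 2 reads in any *Mbd3* KO library, and *Tyrobp* and *Lyz2* had at most 5 reads in any *Mbd3* KO library. The part of these markers in the members' values was not tested.

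The genes most like each member over the 24 libraries were found by Pearson's r of log2 CPM among 12804 genes, as a description without a test, since the libraries fall into groups by line. *Ifih1* was closest to *Parp9* (0.99), *Parp14* (0.98) and *Parp12* (0.98), and *Ddx60* to *Tgfa* (0.98), *Cd74* (0.97) and *Parp12* (0.97). *Dhx58* was closest to *Dtx3l* (0.94), which shares exon sequence with *Parp9*. *Myd88* was closest to *Shisa5* and *Ctsb* (both 0.99), *Eif2ak2* to *Abcb1b* (0.98) and *Tlr3* to *Atp11a* (0.96). *Tmem173* was closest to *H19* and the *Mir675* gene within it (0.97 and 0.98), which share their reads. The members outside the 7 had lower likeness to any gene, with *Dgkk* closest to *Mavs* (0.88), *Poglut1* to *Aim2* (0.88) and *Pex5* to *Trex1* (0.81).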

How the data were processed

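Poly(A) RNA of NPCs was profiled in 24 libraries, 3 for each of 8 lines, assigned by the sample labels and the group names of the columns. The labels name the point mutant R181C, while the study's text has R191C and the column names R64C, and it is called MBD2aR181C here as the only such mutant. The authors made directional libraries, trimmed the single-end reads with Trim Galore, mapped them to NCBIM37 (mm9) with STAR, and used QuasR with GENCODE genes for the counting. These whole-number counts, not normalized, are what the authors deposited. The strand setting of the counting is not given in the sources used here. The ChIP-seq samples were not analysed here.

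Low counts were removed with filterByExpr by line (16582 of 25400 genes kept), TMM was the scaling, and the test was the quasi-likelihood one of edgeR 4.0.16 (R 4.3.3) in a single fit of all libraries, with the line as the only factor and Benjamini-Hochberg adjustment over all genes. A call needed an adjusted p under 0.05 and a log2 fold change above 1 in size. The standard error (SE) of a log2 fold change is its size over the square root of F. RPKM used the length of all annotated exons. On simulated counts for 16029 genes, in the comparison of *Mbd3* KO with WT, the procedure recovered 19 of 50 genes changed 2-fold and 45 of 50 changed 4-fold, and called 6 unchanged genes. The simulation changed 200 genes, all above 1 CPM in WT, whereas 5609 genes were called in the data, so its rates need not hold there. A 2-fold change also lies on the threshold of the call itself. With 3 libraries a line, the smallest p of an exact permutation test (two-sided) is 0.1. Replicates were not copies of each other (chi-square per gene 3.3 to 279). The p-values rest on an estimate of the spread that all lines share in this fit. It joins the spread between clones with that between the MBD2t repeats of 1 clone.

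The members and the pathway and marker lists were chosen with earlier results of these data known. The members are named throughout. Besides them, the text names for each pathway list the 3 largest rises and 3 largest falls among genes called in *Mbd3* KO with a mean of at least 1 log2 CPM, and for each member the 3 most similar genes or fewer. Other names are marked as chosen after their values were seen. One gene that this rule names is not reported here. The lists were the further RNA sensors, DNA sensors, adaptors and kinases, ligases and negative regulators, and interferon genes, and markers of NPCs, pluripotent, trophoblast, primitive endoderm, macrophage and leukocyte, fibroblast and endothelial cells. The fibroblast markers summed to 340.1 to 895 CPM in WT and 476 to 649.4 CPM in *Mbd3* KO, the endothelial to 70.8 to 97.7 and 140.2 to 246.3 CPM, and the primitive endoderm markers to 78.7 to 96.0 and 83.6 to 165.8 CPM. Alternatives were other scalings, filters, thresholds and fits, DESeq2 1.42.0, glmTreat and leaving out each library, and the legacy quasi-likelihood test was added after the data had been seen.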

Additional observations from a re-analysis of the deposited data

How the results depend on the processing

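Over 63 calls of a member in a comparison, 1064 values under other settings gave 0 reversals. All 63 calls held with RLE, upper quartile and library-total scaling, without a filter on low counts, and with CPM above 1 in at least 3 libraries. They also held with DESeq2 and with the legacy quasi-likelihood test (added after the data had been seen). Dropping the fold change threshold kept the main fit, so that no call could be lost or reversed. Its 63 values are among the 1064 and say nothing about how stable the calls are. Scaling by library totals moved all log2 fold changes by up to 0.178. With glmTreat, which builds the 2-fold threshold into the test, 17 of the calls were lost, 8 were lost with only the 2 lines in the fit and with 1 library left out 24 values lost the call and 354 kept it.

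For MBD2aΔGR against WT, the count of 1 became 0 with only the 2 lines in the fit, without the MBD2t line and with glmTreat, and 0 to 2 with a library left out. The 2 members called in MBD2a against *Mbd3* KO became 0 with only the 2 lines and with glmTreat, and 0 to 3 with a library left out. Between MBD2a and MBD2t, dropping the fold change threshold gave 1 (*Tmem173*) in place of 0, and leaving out a library 0 to 5. MBD2a against MBD2aΔGR gave 2 with glmTreat in place of 5, and 3 to 6 with a library left out, and MBD2a against MBD2aR181C gave 4 with glmTreat in place of 7, and 4 to 7. Counts of members under other settings, here and above, are given without the share of all genes called in the same fit. The causes were not tested, beyond fewer samples in the smaller fits.

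No paired analysis was possible because the columns carry a library number and no replicate number. Depth limits *Ddx60*, *Dhx58*, *Tlr3* and *Tmem173*, with under 100 reads in each WT library. Clones of MBD2a differ, and MBD2t is 1 clone.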
